A study of Homo sapiens with 6 samples.

Results

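The acute phase protein genes HP, SAA1, SAA2, SAA4, ORM1, ORM2, CRP, LBP, SERPINA3 and LCN2 were followed by gene symbol, and all 10 were found among 27689 symbols of the deposited table. They were measured in 6 RNA-seq libraries of Huh7, a human hepatocellular carcinoma line. By the labels, 3 libraries were NC and 3 were NACER_ASO (NACER in a second label), where NACER, an lncRNA that the series calls liver-specific, was knocked down. Each group had 1 library in each of sets 2, 5 and 6. The labels give no dose, time or spelled-out meaning of NC, and do not say what a set is or whether sets were separate cultures. The level of NACER was not analysed here.

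Acute phase proteins are plasma proteins that hepatocytes secrete in larger amounts during inflammation. Interleukin-6 acts through the receptor chain gp130 and STAT3, and interleukin-1 and TNF act through NF-kB, with C/EBP factors and glucocorticoids modifying the response. The members have different roles. Haptoglobin (HP) binds free haemoglobin, and lipocalin 2 (LCN2) binds iron-carrying siderophores. Serum amyloid A proteins (SAA1, SAA2 and the constitutive SAA4) travel on high-density lipoprotein. Orosomucoids (ORM1 and ORM2) carry drugs and lipids, and SERPINA3, or alpha-1-antichymotrypsin, inhibits cathepsin G. LBP presents bacterial lipopolysaccharide to CD14, and C-reactive protein (CRP) binds phosphocholine and damaged cells.

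In hg19, SAA1 (chr11:18287772-18291523), SAA2 (chr11:18259780-18270221) and SAA4 (chr11:18252902-18258384) are neighbours. ORM1 (chr9:117085303-117088759) and ORM2 (chr9:117092069-117095536) lie next to each other, as do HP (chr16:72088491-72094955) and its relative HPR (chr16:72097125-72111145). LCN2 lies at chr9:130911709-130915734, SERPINA3 at chr14:95078714-95090390, LBP at chr20:36974814-37005653 and CRP at chr1:159682079-159684379. The neighbours are close copies. In GENCODE 29 transcripts, the longest reading frames of SAA1 and SAA2 had 97.02% identical bases (11 differences in 369) and those of ORM1 and ORM2 had 94.88% (31 in 606). HP and HPR had 95.59% over 1044 aligned bases, and SAA1 and SAA4 had 73.17% over 369. The longest stretch without a difference was 186 bases for SAA1 and SAA2 and 206 bases for ORM1 and ORM2, so the authors' estimates could divide reads within these pairs, and the single values are less certain than their sums.

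The 90 coding bases with the most differences in each pair are shown because they are where reads tell the copies apart best. Capitals mark the differing bases, 9 between SAA1 and SAA2 (coding bases 215 to 304) and 18 between ORM1 and ORM2 (coding bases 314 to 403).
SAA1: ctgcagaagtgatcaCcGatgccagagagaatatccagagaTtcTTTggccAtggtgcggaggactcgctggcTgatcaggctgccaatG
SAA2: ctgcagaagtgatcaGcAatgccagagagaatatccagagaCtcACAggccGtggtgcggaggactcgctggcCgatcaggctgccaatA
ORM1: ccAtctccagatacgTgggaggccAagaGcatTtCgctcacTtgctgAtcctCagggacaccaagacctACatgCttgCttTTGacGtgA
ORM2: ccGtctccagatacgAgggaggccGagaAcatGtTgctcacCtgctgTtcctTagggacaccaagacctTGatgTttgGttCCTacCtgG

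RefSeq promoters (GRCh38.p14, 250 bases before to 50 after the gene start) were given for 5 of the 10 members. The promoters of LCN2 (chr9:128149203-128149502, plus strand) and SERPINA3 (chr14:94612141-94612440, plus strand), both of them higher in set 5, and of ORM1 (chr9:114322848-114323147, plus strand), which was lower there, are shown. Capitals mark matches, on either strand, to a kappaB pattern (GGG and CC with any 5 bases between them), a C/EBP pattern (TTNNGNAA), a STAT pattern (TTCNNNGAA) and a TATA box (TATAAA).
LCN2: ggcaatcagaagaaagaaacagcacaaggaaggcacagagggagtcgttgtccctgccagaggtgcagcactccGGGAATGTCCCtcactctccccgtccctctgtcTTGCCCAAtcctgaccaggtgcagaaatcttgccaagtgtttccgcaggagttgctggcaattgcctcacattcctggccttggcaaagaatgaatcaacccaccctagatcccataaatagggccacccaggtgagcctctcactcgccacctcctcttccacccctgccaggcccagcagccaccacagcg
SERPINA3: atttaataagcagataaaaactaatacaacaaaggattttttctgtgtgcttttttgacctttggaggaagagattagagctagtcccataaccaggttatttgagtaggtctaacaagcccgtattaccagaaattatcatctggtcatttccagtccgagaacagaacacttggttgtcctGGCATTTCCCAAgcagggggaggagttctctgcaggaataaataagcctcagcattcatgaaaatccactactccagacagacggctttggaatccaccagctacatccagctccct
ORM1: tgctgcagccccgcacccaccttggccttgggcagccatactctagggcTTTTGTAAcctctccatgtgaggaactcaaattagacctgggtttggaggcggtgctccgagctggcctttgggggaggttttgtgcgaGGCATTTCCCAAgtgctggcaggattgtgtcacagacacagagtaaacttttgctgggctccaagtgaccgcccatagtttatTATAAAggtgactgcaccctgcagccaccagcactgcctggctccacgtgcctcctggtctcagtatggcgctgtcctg
In SERPINA3 and ORM1 the capitals hold the same 12 letters, in which a kappaB match and a C/EBP match overlap, and the LCN2 capitals hold overlapping kappaB matches on both strands. ORM1 also had a TATA box and a second C/EBP match. SAA4 held 6 C/EBP matches and no kappaB match. CRP held 2 C/EBP matches, a TATA box and no kappaB match. Of 35116 promoters of this length, 58.7% held the kappaB pattern, 36.8% the C/EBP pattern, 7.66% the STAT pattern and 11.53% the TATA box. The STAT pattern was in none of the 5 member promoters. These matches describe letters only, and 2 of the patterns are common.

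Values are FPKM, fragments scaled to transcript length and library depth, which the authors deposited by transcript and which were summed by gene here. Differences were taken after 1 was added to the FPKM, on the log2 scale, so changes of low genes come out too small. No read counts were used. The smallest steps between low values implied roughly 15.6 M to 28.2 M fragments a library. Of 12 hepatocyte markers, 11 or 12 reached 1 FPKM in each library, and ALB was between 575.6 and 1241.9 FPKM. The hepatocyte markers, some of which are also on the acute phase lists, moved with the sets, with sums of 6108 and 6259 FPKM in set 5, 3031 and 3383 in set 2 and 1410 and 1373 in set 6. For set 5 minus set 2, 5 were higher and 4 lower (median 0.12), against 23.5% and 46.8% of all genes. For set 6 minus set 2, 1 was higher and 10 lower (median -0.96), against 20.9% and 27.3%. For set 6 minus set 5, 3 were higher and 9 lower (median -1.40), against 40.6% and 23.8%. Of these markers, TM4SF4 passed the filter of 1 FPKM in 3 libraries through sets 2 and 6 alone and had to be lower in set 5. The libraries of set 5 stood apart from the rest. Of 9 stromal markers, 2 reached 1 FPKM in set 5 and 4 to 6 elsewhere, and of 12 leukocyte markers, 4 or 5 did in set 5 and 3 to 5 elsewhere. Summed stromal markers were between 6.63 and 7.58 FPKM in set 5 and between 259.6 and 294.1 elsewhere, and LUM, which encodes a matrix proteoglycan, was at 0 and 0.0168 FPKM there against 181.8 to 224.1. Summed leukocyte markers were between 520.8 and 543.9 FPKM in set 5 and between 77.8 and 139.3 elsewhere, of which lysozyme (LYZ) made 456.5 and 479.1 FPKM. Of the 5 leukocyte markers tested for set 5 minus set 2, LYZ, S100A9 (1.29) and CD68 (0.51) were higher and CD14 (-0.73) and ITGAM (-0.75) lower. Over all genes, 23.5% were higher and 46.8% lower. CD68 was between 37.0 and 66.9 FPKM in all libraries, and PTPRC, CSF1R, MPO, ELANE, FCGR3B and CSF3R stayed under 1 FPKM. Summed bile duct markers were between 299.6 and 315.1 FPKM in set 5 and between 149.3 and 197.5 elsewhere, a sum carried by EPCAM (200.3 and 213.5 FPKM against 18.1 to 32.2). Of the 6 bile duct markers 3 were higher and 3 lower in set 5 than in set 2, against 23.5% and 46.8% of all genes. KRT7 and CFTR passed the filter through sets 2 and 6 alone and had to be lower in set 5. Keratin 19 (KRT19) was at 1.15 and 2.60 FPKM in set 5 and at 67.96 to 103.1 elsewhere. No endothelial marker reached 1 FPKM. These lists moved with the set, and their part in the results was not tested. All libraries were labelled as Huh7, so the list names do not mean that such cell types were present. In bulk RNA, fewer cells that express a gene and less RNA per cell cannot be told apart.

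Apart from SAA4 and CRP, the acute phase genes differed more between set 5 and the other sets than between NC and NACER_ASO. For set 6 minus set 2 the log2 differences were -0.01 in ORM1, -0.05 in ORM2, 0.17 in SERPINA3 and 0.20 in SAA4. These were smaller in size than the NACER_ASO minus NC differences of the same genes within sets 2 and 6. In set 5 LCN2, SAA1, HP, SAA2 and SERPINA3 were higher and ORM1 and ORM2 were lower than in sets 2 and 6. The members together held 0.223% and 0.230% of the summed FPKM in set 5 and between 0.0722% and 0.0865% in the other libraries. LCN2 made 77.2% and 78.4% of the members' sum in set 5. ORM1 and ORM2 made 87.5% to 91.1% of it in sets 2 and 6 and 1.84% and 2.04% in set 5. The plot of levels by library shows the exchange.

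**Figure D1:**
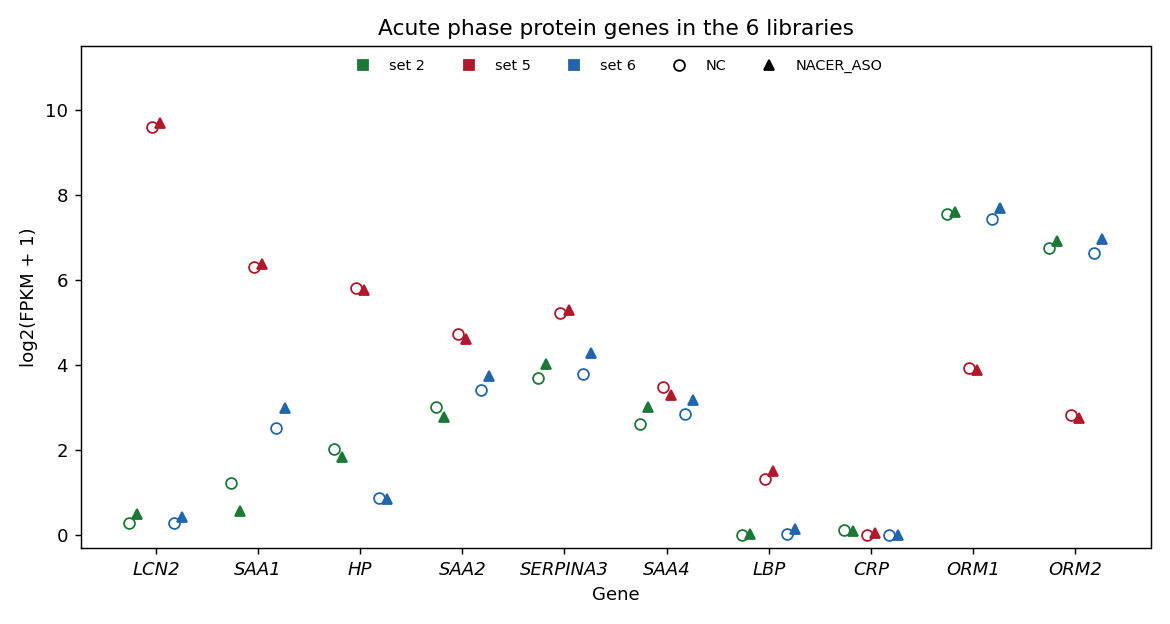
Level of each of the 10 genes as log2(FPKM + 1) on the vertical axis, with 1 point per library, colours for sets 2, 5 and 6, open circles for NC and filled triangles for NACER_ASO. In every gene except SAA4 and CRP the points of a set lie closer to each other than to set 5, and the set 5 points of ORM1 and ORM2 lie below all others.

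LCN2 was listed at 771.0 FPKM in NC and 827.8 in NACER_ASO of set 5. In set 2 it was at 0.227 FPKM in NC and 0.426 in NACER_ASO, and in set 6 at 0.216 and 0.350. In set 5 it was the 85th and the 79th most abundant gene, while elsewhere it was close to absence, at values that stand for roughly 3 to 7.87 fragments. The mean of set 5 was 2447 times that of set 2 and 2827 times that of set 6, ratios that rest on those few fragments. LCN2 reached 1 FPKM in the 2 libraries of set 5 only, so it was outside the filter of 1 FPKM in 3 libraries. With a filter of 1 FPKM in 2 libraries, chosen after the values were seen, the log2 difference between set 5 and set 2 was 9.24 (SE 0.0897, limma adjusted p = 1.33e-06). A gene that passes this filter through set 5 alone had to differ, so this is a description. Of the neutrophil genes on the leukocyte list, MPO and ELANE were between 0 and 0.141 FPKM and S100A8 was lower in set 5 than elsewhere (0.265 and 0.131 FPKM against 0.551 to 1.11), while S100A9 was higher with LCN2, at 4.42 and 5.69 FPKM in set 5 against 1.19 to 1.89. Their part in the LCN2 level was not tested.

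HP was at 54.9 FPKM in NC and 53.6 in NACER_ASO of set 5. It was at 3.06 and 2.62 FPKM in set 2 and at 0.856 and 0.815 in set 6, in the same order. The sets did not overlap, and set 2 lay between the others. The mean of set 5 was 19.1 times that of set 2 and 65.0 times that of set 6. The log2 difference was 3.85 for set 5 minus set 2 (SE 0.102, adjusted p = 6.00e-06) and -1.06 for set 6 minus set 2 (SE 0.102, adjusted p = 0.00125) in the limma fit. Of the 3 HP transcripts, NM_005143 took 80.2% and 80.4% of HP in set 5, 62.7% and 67.4% in set 2 and 36.1% and 62.7% in set 6. In NC set 6, where HP was under 1 FPKM, NM_001318138 took 52.3%. That transcript has the same locus and the same length as NM_001126102, and the effect of that on the HP shares was not tested. HPR, the copy next to HP, was at 7.58 and 8.04 FPKM in set 5 and between 0.0894 and 0.706 FPKM elsewhere, so it was high in the same libraries. With the identity between the genes, part of the HPR signal may be HP reads, which was not tested.

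**Figure D2:**
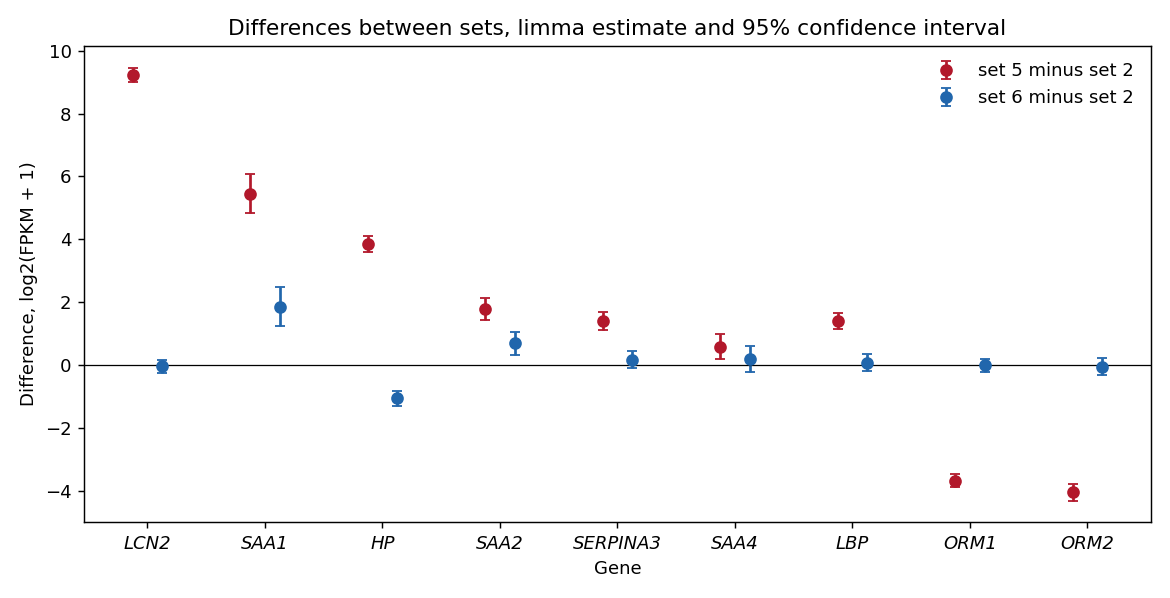
Difference between sets on the log2(FPKM + 1) scale for 9 members, with the limma estimate as a point and its 95% confidence interval as a bar, red for set 5 minus set 2 and blue for set 6 minus set 2. LCN2 and LBP come from the filter of 1 FPKM in 2 libraries, chosen after the values were seen. They passed it through set 5 alone, so their red points and bars are a description. Red points run from 9.24 in LCN2 to -4.05 in ORM2, and blue intervals exclude 0 for SAA1, HP and SAA2.

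SAA1 was at 78.3 FPKM in NC and 82.6 in NACER_ASO of set 5. It was at 1.35 and 0.485 FPKM in set 2 and at 4.74 and 6.91 in set 6. All 3 sets were separate, in the order set 2, set 6, set 5. The log2 difference was 5.45 for set 5 minus set 2 (SE 0.250, adjusted p = 2.56e-05) and 1.85 for set 6 minus set 2 (SE 0.250, adjusted p = 0.00283) in limma. SAA2 kept the same order with a smaller range, at 25.5 and 23.7 FPKM in set 5, 9.71 and 12.4 in set 6 and 7.08 and 5.86 in set 2. Its differences were 1.78 (SE 0.145, adjusted p = 0.000150) and 0.69 (SE 0.145, adjusted p = 0.0118), and the second was 0.51 with an adjusted p of 0.0633 without NACER_ASO set 2. SAA1 was 3.07 and 3.49 times SAA2 in set 5 and between 0.0829 and 0.559 times SAA2 elsewhere.

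SAA4, which is made at a steady level in liver, varied least of the members that reached 1 FPKM. It was at 10.3 and 8.80 FPKM in set 5, 5.13 and 7.09 in set 2 and 6.21 and 8.03 in set 6, with NC first. Set 5 lay above the other libraries by a small margin. The log2 difference for set 5 minus set 2 was 0.58 (SE 0.165, limma adjusted p = 0.0204). It was 0.41 with an adjusted p of 0.131 without NC set 2, and 0.30 with an adjusted p of 0.197 without NC set 5. The readthrough gene SAA2-SAA4 was between 0.531 and 3.99 FPKM, and SAA3P, a pseudogene of the family, was at 0.372 and 0.747 FPKM in set 2 and listed at 0 elsewhere. Within SAA1, NM_199161 took 87.6% and 91.8% of the gene in set 5 and 85.5% and 92.3% in set 6, but 39.1% in NC and 85.2% in NACER_ASO of set 2, where the gene was low. Within SAA2, NM_030754 took 66.6% and 72.6% in set 5, 54.1% and 30.9% in set 2 and 73.0% and 80.7% in set 6. Isoforms of a gene share reads, so these shares are less certain than the sums.

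SERPINA3 was at 36.6 FPKM in NC and 38.6 in NACER_ASO of set 5. It was at 12.0 and 15.3 FPKM in set 2 and at 12.9 and 18.4 in set 6. Set 5 lay above both other sets, which overlapped. The log2 difference was 1.40 for set 5 minus set 2 (SE 0.112, adjusted p = 0.000137) and -1.23 for set 6 minus set 5 (SE 0.112, adjusted p = 0.000258) in limma.

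The orosomucoids went the other way. ORM1 was at 187.5 FPKM in NC and 193.3 in NACER_ASO of set 2, 173.4 and 205.6 in set 6, and 14.3 and 13.7 in set 5. ORM2 was at 107.7 and 120.5 FPKM in set 2, 98.3 and 122.9 in set 6, and 6.12 and 5.74 in set 5. Both genes were high in sets 2 and 6, whose libraries overlapped, and low in set 5. The mean of set 2 was 13.6 times that of set 5 for ORM1 and 19.2 times for ORM2. The log2 difference for set 5 minus set 2 was -3.67 in ORM1 (SE 0.0891, adjusted p = 5.09e-06) and -4.05 in ORM2 (SE 0.106, adjusted p = 5.83e-06) in limma. For set 6 minus set 2 it was -0.01 in ORM1 (95% confidence interval -0.23 to 0.21) and -0.05 in ORM2 (interval -0.31 to 0.21). ORM1 was between 1.60 and 1.76 times ORM2 in sets 2 and 6 and 2.33 and 2.39 times ORM2 in set 5.

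LBP and CRP were at the edge of detection. LBP was at 1.53 FPKM in NC and 1.84 in NACER_ASO of set 5, which stands for roughly 70.5 and 98.1 fragments. In the other libraries it was between 0 and 0.1099 FPKM, or at most about 5 fragments. It passed only the filter of 1 FPKM in 2 libraries, where set 5 minus set 2 was 1.40 (SE 0.108, limma adjusted p = 0.000145), again a description. CRP did not reach 1 FPKM in any library. It was at 0.0921 and 0.0681 FPKM in set 2, listed at 0 and at 0.0350 FPKM in set 5, and listed at 0 in both libraries of set 6. These values stand for about 3 fragments or fewer, so no difference in CRP was detectable at this depth.

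All 7 members that passed the filter of 1 FPKM in 3 libraries were called between set 5 and set 2, where the background was high. Of 13576 genes, 70.3% were called, 23.5% higher and 46.8% lower, against 5 members higher and 2 lower. Between set 6 and set 5, 64.3% of genes and 6 of 7 members were called, 4 of the members lower (23.8% of genes) and 2 higher (40.6%), and SAA4 was not (-0.38, SE 0.165, adjusted p = 0.0856). Between set 6 and set 2, 48.2% of genes and 3 of 7 members were called, 2 of the members higher (20.9% of genes) and 1 lower (27.3%). With the filter of 1 FPKM in 2 libraries, 9 of 9 members were called for set 5 minus set 2 (72.7% of 15036 genes), 7 higher (24.4%) and 2 lower (48.3%). For set 6 minus set 2 it was 3 of 9 (50.1%), and for set 6 minus set 5 it was 8 of 9 (62.6%), 2 higher (37.8%) and 6 lower (24.8%). LCN2 and LBP passed this filter through set 5 alone and had to differ there, so their 2 calls against set 5 in each contrast add nothing to the 7 members. Both libraries of set 5 lay above the other 4 in 5 of 7 members and 22.7% of genes, and below them in 2 of 7 members and 41.1% of genes. In the contrast of sets 6 and 2 the members' share was not above the background, and in the others most genes were called too. The median difference for set 5 minus set 2 was 1.40 over the 7 members and -0.26 over all genes. With median-of-ratios scaling the median of all genes moved by 0.30, and 52.9% of the calls were higher, against 33.4% with FPKM as deposited. For set 6 minus set 2 the median moved by 0.17 and the higher share went from 43.4% to 62.5%, and for set 6 minus set 5 by -0.13 and from 63.1% to 52.8%. Scaling to equal sums moved the median of set 5 minus set 2 by -0.15, with 26.9% of calls higher. No member called in that contrast turned its direction under either scaling. These tests compare sets of 2 libraries with the spread of libraries within sets, and if a set is 1 culture, the p-values say nothing about other cultures.

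In tests that do not pair the libraries by set, NACER_ASO and NC did not differ in any member beyond the spread of the libraries. In the limma fit 0 of 13576 genes and 0 of 7 members were called (0% in the background), each member at an adjusted p of 0.999994, with 20 genes and 0 members at an unadjusted p under 0.05. The set differences are part of that spread, and the fit with the set number as a block is given below. ORM1, for example, was at 125.1 ± 96.2 FPKM in the 3 NC libraries (SD) and 137.6 ± 107.4 in the 3 NACER_ASO libraries, and LCN2 at 257.1 ± 445.0 and 276.2 ± 477.7. HP was at 19.6 ± 30.6 and 19.0 ± 30.0 FPKM, and SAA1 at 28.1 ± 43.5 and 30.0 ± 45.7. The two-sided exact permutation p, which cannot go below 0.1 with 3 against 3 libraries, was between 0.5 and 1 for the 10 members.

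Within sets, SERPINA3 was higher in NACER_ASO in 3 of 3 sets, by 0.33, 0.08 and 0.48 on the log2(FPKM + 1) scale in sets 2, 5 and 6. LCN2 (0.22, 0.10 and 0.15) and LBP (0.03, 0.17 and 0.13) were also higher in 3 of 3 sets, from values near 0 outside set 5. HP was lower in 3 of 3 sets, by differences of -0.17, -0.03 and -0.03. Of the 7 members tested, 1 was higher and 1 lower in all 3 sets, against 27.2% and 11% of all genes. In sets 2 and 6 alone, 4 of 7 were higher in NACER_ASO, against 38.8% of genes. SAA1 moved in opposite directions, with -0.66 in set 2, 0.08 in set 5 and 0.46 in set 6, and SAA2 did too, with -0.24, -0.11 and 0.32. SAA4 (0.40, -0.21 and 0.32), ORM1 (0.04, -0.05 and 0.24) and ORM2 (0.16, -0.08 and 0.32) were lower in set 5 and higher in the others. With 1 library of each group per set, a difference between sets in the response was not tested.

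**Figure D3:**
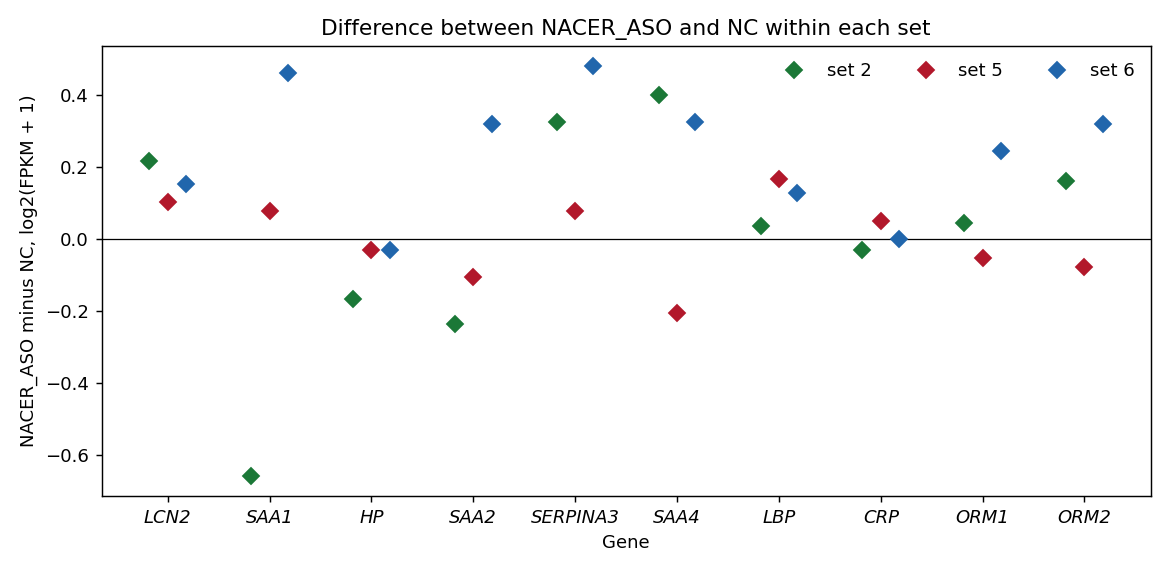
NACER_ASO minus NC within each set for the 10 genes, on the log2(FPKM + 1) scale, with 1 diamond per set (green 2, red 5, blue 6). All differences lie between -0.66 and 0.48, and only SERPINA3, LCN2, LBP and HP keep 1 sign in all 3 sets.

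With the set number as a replicate block the errors were smaller, and 0 genes and 0 members were called, with 1685 genes and 1 member at an unadjusted p under 0.05. That member was SERPINA3, with a difference of 0.29 (SE 0.0913, 95% confidence interval 0.07 to 0.52, adjusted p = 0.338). ORM2 was at 0.13 (SE 0.0865, interval -0.08 to 0.35, adjusted p = 0.550) and SAA4 at 0.17 (SE 0.134, interval -0.16 to 0.50, adjusted p = 0.615). ORM1 was at 0.08 (interval -0.10 to 0.26), HP at -0.08 (interval -0.28 to 0.13), SAA2 at -0.01 (interval -0.30 to 0.28) and SAA1 at -0.04 (interval -0.54 to 0.46). The median over the 7 members was 0.08 and that over all genes 0.04.

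Other positive acute phase genes did not follow 1 direction between the sets. Of 20 on the list, 14 were tested and all 14 were called for set 5 minus set 2, with 6 higher, 8 lower and a median of -0.62, where 70.3% of all genes were called, 23.5% higher and 46.8% lower. Haemopexin (HPX), which binds free haem, was at 56.2 and 55.9 FPKM in set 2, 7.33 and 7.73 in set 5 and 27.3 and 27.1 in set 6 (difference -2.74, SE 0.0747, limma adjusted p = 6.30e-06). Set 5 was lowest and set 2 highest, with no overlap. Complement C4A (-2.89, SE 0.170, adjusted p = 5.27e-05), which shares reads with its copy C4B, and the fibrinogen-like hepatokine FGL1 (-2.81, SE 0.0775, adjusted p = 6.51e-06) were lower as well. C4A was at 0.00817 and 0.521 FPKM in set 5. It passed the filter through sets 2 and 6 alone and had to be lower in set 5, so its difference is a description. SERPING1, the C1 inhibitor, was lower by a difference of -0.93 (SE 0.0887, adjusted p = 0.000269). Ceruloplasmin (CP), a copper-carrying ferroxidase, was higher by 0.47 (SE 0.128, adjusted p = 0.0176). The plot of the lists names complement C3 as the highest, at 1.61.

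Negative acute phase genes, whose plasma levels fall in inflammation, were higher in 5 and lower in 3 of 10 tested in set 5 against set 2, and lower in 8 and higher in 0 in set 6 against set 2. Over all genes, 23.5% were higher and 46.8% lower in the former contrast, and 20.9% and 27.3% in the latter. APOA1, the main apolipoprotein of high-density lipoprotein, was at 24.5 and 26.9 FPKM in set 2, 479.6 and 516.3 in set 5 and 5.54 and 6.78 in set 6. Its set 5 minus set 2 difference was 4.23 (SE 0.0735, limma adjusted p = 2.62e-06). The retinol carrier RBP4 was higher in set 5 as well (2.41, SE 0.0909, adjusted p = 1.58e-05), as was antithrombin, SERPINC1 (1.39, SE 0.1196, adjusted p = 0.000182). APOA2 was lower (-3.06, SE 0.0796, adjusted p = 5.78e-06). The corticosteroid carrier SERPINA6 was at 0.25 (SE 0.0821, adjusted p = 0.0350).

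**Figure D4:**
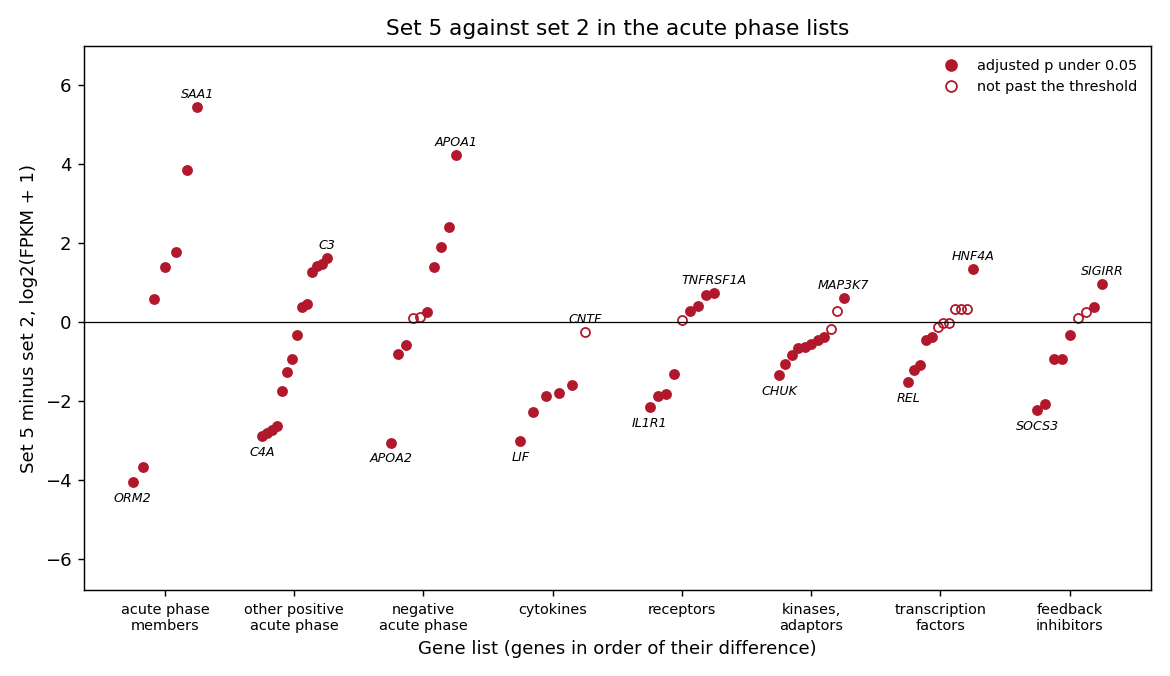
Set 5 minus set 2 on the log2(FPKM + 1) scale for the tested genes of 8 lists, 1 point per gene, filled where the limma adjusted p is under 0.05, with the lowest and highest gene of each list named. The members run from ORM2 at -4.05 to SAA1 at 5.45, the cytokines all lie below 0, and the other lists hold points on both sides. IL6, TNF, IL11, IL1R2 and C4A passed the filter through sets 2 and 6 alone, so their points had to lie below 0.

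Among the signals that induce the response, 6 of 10 cytokine genes on the list were tested. Of these 6, 5 were lower in set 5 than in set 2 and none was higher, with a median of -1.84. IL6, TNF and IL11 passed the filter through sets 2 and 6 alone and had to be lower in set 5. Their part of this count and their differences from set 5 are therefore a description. Over all genes 46.8% were lower and 23.5% higher. The interleukin-1 genes were outside the filter. IL1A was at 1.69 and 2.56 FPKM in set 2 and at 0.0208 and 0.0121 in set 5. IL1B went the other way, at 0.0427 and 0 FPKM in set 2 and 0.164 and 0.352 in set 5. IL6 was at 5.30 FPKM in NC and 2.998 in NACER_ASO of set 2, listed at 0 and at 0.0596 FPKM in set 5, and at 17.9 and 20.3 FPKM in set 6. The sets were separate, with set 6 highest, and the difference for set 6 minus set 2 was 1.998 (SE 0.215, limma adjusted p = 0.00159). LIF, a cytokine of the same family, was at 33.5 and 16.3 FPKM in set 2, 2.49 and 1.64 in set 5 and 21.96 and 17.4 in set 6. TNF (-1.80, SE 0.172, adjusted p = 0.000268), CLCF1 (-1.87, SE 0.122, adjusted p = 7.07e-05) and IL11 (-1.61, SE 0.130, adjusted p = 0.000147) were also lower in set 5 than in set 2. Set 5, where IL6 and LIF were lowest, had the highest LCN2, SAA1, SAA2, HP and SERPINA3 and the lowest ORM1 and ORM2. SAA1 and SAA2 were, like IL6, higher in set 6 than in set 2. HP was lower there, and SAA4, ORM1, ORM2 and SERPINA3 were not called. A link between the cytokine and the member levels was not tested.

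Of 10 receptor genes on the list 9 were tested. Of these, 4 were higher and 4 lower in set 5 than in set 2, against 23.5% and 46.8% of all genes. IL22RA1, a receptor chain for interleukin-22, was outside the filter of 1 FPKM in 3 libraries. It was at 6.14 and 6.19 FPKM in set 5 and between 0.106 and 0.255 FPKM elsewhere. The interleukin-1 receptor IL1R1 (-2.16, SE 0.114, adjusted p = 3.72e-05), its decoy IL1R2 (-1.83, SE 0.158, adjusted p = 0.000184) and the glucocorticoid receptor NR3C1 (-1.88, SE 0.129, adjusted p = 8.38e-05) were lower. IL1R2 was at 0.196 and 0.409 FPKM in set 5. It passed the filter through sets 2 and 6 alone and had to be lower in set 5, so its difference is a description. The interleukin-6 receptor IL6R (0.42, SE 0.129, adjusted p = 0.0274) and the TNF receptor TNFRSF1A (0.74, SE 0.0740, adjusted p = 0.000325) were higher. These p-values come from limma. Of 11 kinase and adaptor genes 8 were lower and 1 higher, against 46.8% and 23.5% of all genes. The IKK subunit CHUK (-1.35, SE 0.0820), the interleukin-1 receptor kinase IRAK1 (-0.83, SE 0.0825) and the adaptor MYD88 (-1.07, SE 0.0974) were among the lower ones, and the kinase MAP3K7 (0.61, SE 0.0842) was the higher one.

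Of 12 transcription factor genes, 5 were lower and 1 was higher in set 5 than in set 2, with the share of lower ones near the 46.8% of all genes (23.5% were higher). The NF-kB subunit gene NFKB2 (-1.21, SE 0.0970, limma adjusted p = 0.000140) and CEBPG (-1.08, SE 0.0656, adjusted p = 5.83e-05) were lower. The 1 higher factor was HNF4A, a hepatocyte nuclear receptor, at 29.5 and 28.2 FPKM in set 2 and 77.1 and 72.8 in set 5, named after its value was seen. CEBPA was lower in set 6 than in set 2 (-1.82, SE 0.184, adjusted p = 0.00136). Of 9 feedback inhibitors 5 were lower and 2 higher, also near these shares, with the JAK inhibitor SOCS3 (-2.22, SE 0.145, adjusted p = 7.24e-05) and the NF-kB inhibitor NFKBIA (-2.08, SE 0.132, adjusted p = 6.67e-05) lower and the interleukin-1 receptor inhibitor SIGIRR (0.96, SE 0.113, adjusted p = 0.000593) higher. TNFAIP3, which restrains NF-kB, was lower (-0.94), as was PIAS3, a STAT3 inhibitor (-0.33). CEBPD and FOXA2 were not called. For NACER_ASO minus NC, 0 genes of any of these lists were called, with or without the block. LIF had the smallest unadjusted p among the named genes of the lists, with a blocked difference of -0.57 (SE 0.142, limma adjusted p = 0.322).

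LCN2 had the highest mean of the members over the 6 libraries, through set 5 alone, and ORM1 was the most abundant member in the other 4 libraries. Of the 15035 genes other than LCN2 that reached 1 FPKM in 2 libraries, 472 had a Pearson r above 0.99 with LCN2 on the log2(FPKM + 1) scale. The nearest were PIP5K1B, ARHGEF38, USH1C, SULT1A2 and ALOX5. PIP5K1B was at 7.45 and 7.46 FPKM in set 5 and at most 0.0387 elsewhere, and ALOX5, which encodes 5-lipoxygenase, was at 7.99 and 8.43 FPKM in set 5 and at most 0.0798 elsewhere. The 6 points fall into set 5 and the rest, so r measures that split.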

How the data were processed

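The authors deposited FPKM for RefSeq transcripts on hg19, with symbol, locus and length, per the file headers. FastQC 0.11.5, Bowtie2 2.2.6 and StringTie 1.3.3b are named in the submitters' processing notes, with no role given. The labels' protocols name Trizol extraction and a TruSeq Stranded mRNA kit. Of 63714 transcript rows, 11711 were at 0 in all libraries. Transcript lengths in bases are given in the deposited table and were used only to look for depth.

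FPKM was summed per symbol. Genes with at least 1 FPKM in 3 libraries were kept (13576) and log2(FPKM + 1) was fitted with limma 3.58.1 in R 4.3.3 with a variance trend. NACER_ASO was set against NC with the group as the only term, and the sets were contrasted with the group as a term. Two-sided p-values were adjusted over all genes by Benjamini-Hochberg, with a threshold of 0.05. The fits were run on simulated data, where each had to return the size of known changes on average. Only the fit of the sets also had to call most of the genes given the larger change. The check therefore does not show which changes the NACER_ASO minus NC fits could detect. Of the low FPKM products with length, 26.8% to 38.2% lay within 2% of a whole multiple of the smallest step. Whole reads could therefore not be had, and depths are rough. Once the group mean was taken off each gene, the NC and NACER_ASO libraries with the same set number had correlations of 0.901, 0.966 and 0.898 across genes in sets 2, 5 and 6, so the set numbers pair the libraries. Exact permutation tests used SciPy 1.17.1.

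Reading frames were the longest in each protein-coding GENCODE 29 transcript. Members and lists were chosen with earlier results of these data known. One gene of the list of other positive acute phase genes is not reported here and was taken out of that list's counts. Named genes were all members and their copies, in each list the 3 with the smallest blocked p and the 3 with the largest range of set means, and the 5 genes most like the most abundant member, with exceptions said in the text. No label says that libraries came from separate cultures, so a p-value covers the spread of these 6 libraries alone, which may be technical.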

Additional observations from a re-analysis of the deposited data

How the results depend on the processing

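The 7 tested members kept their direction for set 5 against set 2 and set 5 against set 6 with a pseudocount of 0.1, other filters, both scalings, no group term and each library left out, except that HP was outside the filter of 5 FPKM and has no value there. SAA4 lost its call for set 5 minus set 2 when low genes were kept (0.58, adjusted p = 0.0503) and ranged from 0.30 to 0.86 when a library was left out. With median-of-ratios scaling, set 6 minus set 2 turned to 0.18 in ORM1 and 0.14 in ORM2, SERPINA3 was called (0.35, adjusted p = 0.0266), and SAA4 was called for set 6 minus set 5 (-0.52, adjusted p = 0.0159). Without NACER_ASO set 5, SAA4 was also called there (-0.67, adjusted p = 0.0177). When a library was left out, set 6 minus set 2 ranged from -0.14 to 0.11 in ORM1 and from -0.19 to 0.089 in ORM2.

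Genes called for set 6 minus set 2 numbered 6550, and 4310 with a filter of 5 FPKM, where 9418 genes were tested. They numbered 4364 to 5961 when a library was left out, the lowest without NC set 6. With no filter 8547 of 23824 genes were called, with median-of-ratios scaling 7405 of 13536 and with equal sums 7139 of 15356. Without set 5, SAA1 (1.85, adjusted p = 0.00106) and SAA2 (0.69, adjusted p = 0.0129) were called for set 6 minus set 2, and HP was below the filter.

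For NACER_ASO minus NC, the replicate block changed no member's call. With it, 13 genes were called without both libraries of set 5 and 95 without both of set 6, none of them members. SAA1 was at 0.27 and SAA2 at 0.11 with the block without set 2. SAA2 was at 0.042 without set 5, with or without the block, and ORM1 at -0.0044 with the block without set 6. Leaving out 1 library unbalances the sets between the groups, and the differences then ranged from -1.55 to 1.37 in HP, -1.58 to 1.44 in SAA1, -0.46 to 0.50 in SAA2, -0.014 to 0.43 in SAA4, -1.11 to 1.33 in ORM1, -1.16 to 1.53 in ORM2 and -0.092 to 0.79 in SERPINA3. LCN2 and LBP were outside the filter when a library was left out. Values of a few fragments limit LCN2 outside set 5, LBP and CRP.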

Other observations

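Receptors and partners of the members were also read. LRP2, which encodes megalin, an endocytic receptor that takes up lipocalin 2, was at 27.2 and 23.0 FPKM in NC and NACER_ASO of set 5, 1.25 and 1.79 in set 2 and 0.394 and 0.668 in set 6. Its difference for set 5 minus set 2 was 3.38 (SE 0.164, limma adjusted p = 2.99e-05). HMOX1, the haem-degrading enzyme induced by haptoglobin-haemoglobin uptake in macrophages, was at 43.8 and 41.8 FPKM in set 5, 24.7 and 13.1 in set 2 and 12.5 and 14.1 in set 6 (1.20 for set 5 minus set 2, SE 0.232, adjusted p = 0.00453). CD14, the partner of LBP, was lower in set 5 than in set 2 (-0.73, SE 0.151, adjusted p = 0.00593), at levels between 0.680 and 2.70 FPKM over all libraries. SCARB1, a receptor of high-density lipoprotein that also takes up serum amyloid A, was at 0.09 (SE 0.0790, adjusted p = 0.341).

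CEBPB, a main inducer of acute phase genes, was chosen here after its values were seen. It was at 2.79 FPKM in NC and 55.6 in NACER_ASO of set 2, 4.97 and 28.8 in set 5, and 44.5 and 4.98 in set 6. Libraries of 1 set differed many-fold in both directions, unlike in the members. Other pathway genes also differed within a set, and these too were picked after their values were seen. IL6ST, which encodes gp130, was at 24.2 FPKM in NC and 5.03 in NACER_ASO of set 6. FOXA2 was at 9.34 and 41.5 FPKM in set 2, in the same order. Both differed less in the other sets. STAT3 was at 14.6 and 23.2 FPKM in set 2 and at 27.4 and 15.8 in set 6. The deposited table holds 3 CEBPB transcripts with the same locus and the same length, and the effect of that on the estimates was not tested.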
